A study of Mus musculus with 12 samples.

Results

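The asterisk arms of mouse microRNA (miRNA) precursors were described in mouse embryonic fibroblasts under endoplasmic reticulum stress, each beside its guide arm. The chosen entries were those whose array name starts with mmu- and ends in an asterisk, leaving aside every entry of the families numbered miR-669, miR-467, miR-466 or miR-297, and miR-31*, miR-199b*, miR-214*, miR-9*, miR-877* and miR-30c-2*. They were 105 of the 611 mouse miRNAs on the array, out of 115 names with an asterisk, and they had 102 distinct guide arms. The fibroblasts were of the C57BL/6 background and were either wild type (XBP1WT) or deficient in XBP1 (XBP1KO), which drives stress genes when proteins misfold in the endoplasmic reticulum. The 6 groups were untreated cells and cells given 2 ug/mL tunicamycin for 12 h or for 24 h, in both genotypes, and no other allele or agent is named in the labels. Tunicamycin blocks N-linked glycosylation, so that misfolded protein collects in the endoplasmic reticulum. Each group had 2 arrays from independent experiments, and the labels do not say whether the cells came from separate embryos or from 1 line per genotype. The stated purpose was to find miRNAs whose response to tunicamycin at 12 h requires XBP1. In such bulk samples, fewer cells of a type and less RNA per cell cannot be told apart.

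A miRNA precursor is a hairpin that the nuclease Dicer cuts into a short duplex. Usually 1 strand, the guide, is loaded into an Argonaute protein and directs the repression of messenger RNAs, while the other strand, the passenger, is degraded. In the older nomenclature that the array uses, the arm found less often carries the asterisk, and in the present nomenclature arms are named -5p and -3p by the side of the hairpin they come from. Both arms of 1 precursor come from the same transcript, but a guide can also come from further precursors.

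The mature sequences of 23 of the 26 asterisk arms that could be tested were found in RefSeq's table (build GRCm38.p6), by matching the older names to arm names. The 10 arms below are those that were higher after 12 h of tunicamycin in both genotypes. Capitals mark the seed, bases 2 to 8, which pairs with target messenger RNAs.
let-7b*: cUAUACAAccuacugccuuccc
let-7d*: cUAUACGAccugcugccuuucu
let-7f*: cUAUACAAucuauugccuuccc
let-7g*: aCUGUACAggccacugccuugc
miR-15a*: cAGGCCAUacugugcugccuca
miR-16*: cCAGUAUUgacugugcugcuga
miR-18a*: aCUGCCCUaagugcuccuucug
miR-483*: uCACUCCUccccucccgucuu
miR-485*: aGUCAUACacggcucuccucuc
miR-872*: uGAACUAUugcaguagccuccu

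For comparison, the next 4 arms were above the array floor on all 12 arrays and did not pass the test after tunicamycin.
miR-17*: aCUGCAGUgagggcacuuguag
miR-29b*: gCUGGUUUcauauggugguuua
miR-30a*: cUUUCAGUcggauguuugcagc
miR-140*: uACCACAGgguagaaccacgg

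The last pair came from let-7 precursors, and these arms were detected on no array although their guides were detected on all 12.
let-7a*: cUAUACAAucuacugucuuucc
let-7i*: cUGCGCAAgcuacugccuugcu

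Let-7a*, let-7b* and let-7f* share the seed UAUACAA, and miR-30a* and miR-30e* share the seed UUUCAGU. Several of these precursors lie close together in the genome. RefSeq places let-7f* at chr13:48537833-48537854 and let-7d* at chr13:48536024-48536045, both on the minus strand, and miR-15a* and miR-16* on the minus strand of chromosome 14 with 122 bases between them. On the plus strand of chromosome 14, miR-17* and miR-18a* have 165 bases between them.

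Signals are given on a scaled, linear scale on which every array has the same 75th percentile over 95 mouse miRNAs detected on all 12 arrays. Signals under 10.0 were set to that floor before log2 was taken. The word detected refers to the call of the scanner software. A miRNA was tested where both arrays of any group detected it, which 26 of the 105 asterisk arms and 256 of all 611 mouse miRNAs were. Differences are log2 differences between group means with the standard error (SE) of a limma fit, 2 arrays per group, and a miRNA was called at a Benjamini-Hochberg adjusted p under 0.05.

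Before scaling, the summed signal of the mouse miRNAs was between 14100 and 78200 on the 8 tunicamycin arrays and between 94800 and 186000 on the 4 untreated ones, so that differences are relative to each array's other miRNAs. The untreated arrays lay on 1 slide and the tunicamycin arrays on the other, so that slide and treatment cannot be told apart. Of 11 miRNAs listed as fibroblast and mesenchymal markers, 8 were detected on all 12 arrays, while none of the 7 epithelial, 5 blood and 1 liver markers was detected on any. At least 1 array detected 1 of 2 endothelial, 1 of 4 muscle, 2 of 4 neural and 1 of 7 pluripotent markers, with summed signals of at most 26, 104, 37.7 and 272, beside 12700 to 27700 for the fibroblast markers.

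Most asterisk arms were not called detected. The software detected 77 of the 105 on no array, and for 21 of these 77 the guide was detected on all 12 arrays. Among the 28 detected at least once, only miR-140*, miR-17* and miR-29b* were detected on all 12 arrays. Untreated arrays detected 12 to 18 of the asterisk arms and the arrays of 12 h detected 13 to 18. At 24 h only 5 to 10 were detected, and the array with 5, of wild type cells, had the lowest summed signal of the 12 arrays, 14100.

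For 5 tested arms the asterisk arm was detected and the guide was not detected on any array. These were miR-17*, miR-135a*, miR-299*, miR-485* and miR-674*, and the guide of a further arm, miR-483*, was detected on 1 array. Thus 20 of the 26 tested arms had a tested guide. For the first 5, the arm that the older nomenclature marks as the passenger was the only arm that the software detected. Why their guides were not detected was not tested.

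**Figure D1:**
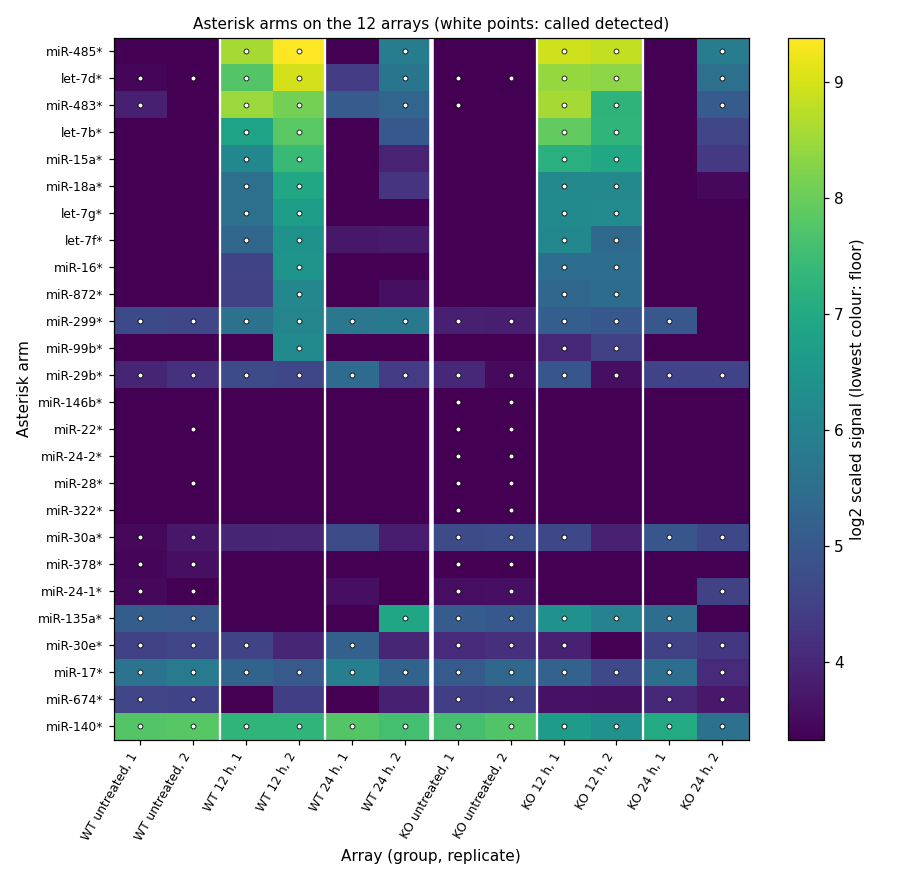
The colour gives the log2 scaled signal of the 26 tested asterisk arms (rows, in order of their mean 12 h difference) on the 12 arrays (columns, by group and replicate), and white points mark arrays on which the software detected the arm. The upper 10 rows are bright in the 12 h columns of both genotypes and at or near the floor in the untreated columns, while miR-140* at the bottom is bright on all 12 arrays.

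The 3 asterisk arms detected on all arrays did not pass the test at 12 h or 24 h in either genotype. MiR-140*, from a precursor best known in cartilage, gave 216 and 224 in untreated wild type cells, 156 and 157 at 12 h, and 218 and 189 at 24 h. In the knockout it gave 192 and 212 untreated, 102 and 84.4 at 12 h, and 131 and 47.8 at 24 h. All 4 knockout tunicamycin arrays were thus below both untreated ones. The difference in the knockout was -1.12 (SE 0.41, limma adjusted p = 0.0572) at 12 h and -1.35 (SE 0.41, limma adjusted p = 0.0827) at 24 h, neither of which passed the threshold.

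MiR-17*, from the precursor cluster of miR-17 that also yields miR-18a*, gave 49.5 and 55.6 in untreated wild type cells and 38.2 and 32.1 at 12 h. The knockout gave 33.0 and 40.2 untreated and 37.5 and 25.3 at 12 h. The wild type groups did not overlap and the knockout groups did. Neither difference passed the test (-0.58 in wild type and -0.24 in knockout, SE 0.49 for both). MiR-29b* lay between 11.2 and 43.6 over all 12 arrays, close to the floor of 10.0, with differences at 12 h of 0.59 in wild type and 0.52 in knockout (SE 0.50 for both) that did not pass the test.

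The comparison of 12 h of tunicamycin with untreated cells gave most of the calls. In wild type cells 10 asterisk arms were higher and 1 was lower. In the knockout 10 were higher and limma called none lower. At an unadjusted p under 0.05, 12 arms in wild type and 13 in the knockout passed in either direction, which added miR-140*, miR-299* and miR-674* in the knockout. Over all 256 tested miRNAs the share called higher was 25.4% in wild type and 23.8% in the knockout. An arm that was tested only because it was detected at 12 h had to be higher there, so the share of the 26 is not read against these values. When all 611 mouse miRNAs were tested without the detection filter, 11 of the 105 asterisk arms (10.5%) were higher in wild type against 10.1% of all, and 10 of the 105 (9.52%) in the knockout against 8.35% of all. The share of asterisk arms that rose was therefore near that of all miRNAs on the array. The 11th arm, miR-463*, was detected on no array and is named here after its value was seen.

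The same 10 arms rose in both genotypes, and all 10 came from the 3′ side of their hairpins. They were 4 arms of the let-7 precursors, whose guides repress growth and oncogenes, miR-15a* and miR-16* from a precursor pair whose guides repress Bcl2 and cell cycle genes, miR-18a* from the miR-17 cluster, miR-483* from an intron of Igf2, miR-485* from the imprinted Dlk1-Dio3 region, and miR-872*. By precursor group, of 7 let-7 asterisk arms on the array, 4 were tested and all 4 rose. Of 5 asterisk arms of the miR-15, miR-16, miR-195, miR-322 and miR-503 precursors, 3 were tested and 2 rose. Of 8 from the miR-17 and related clusters 2 were tested and 1 rose, and of 12 from the Dlk1-Dio3 region 2 were tested and 1 rose. Of the 4 miR-30 and the 4 miR-23, miR-24 and miR-27 asterisk arms, 2 of each were tested and none was called. Let-7b*, let-7f*, let-7g*, miR-15a*, miR-16*, miR-18a*, miR-483*, miR-485* and miR-872* were tested only because both arrays of a 12 h group detected them. Such arms had to be higher there, so these counts do not compare the precursor groups.

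MiR-485* had the largest difference. It was at the floor and undetected on all 4 untreated arrays. At 12 h it gave 377.1 and 665.1 in wild type and 489 and 451 in the knockout. For a fold value, each untreated array was given the arm's own signal or that array's lowest detected signal, whichever was higher. Group means of log2 values were then compared. On this basis miR-485* was 113-fold higher in wild type and 249-fold higher in the knockout. These folds are not lower limits, since undetected arms could read above the lowest detected signal. That signal was 0.997 and 1.58 in untreated knockout cells, where undetected let-7b* gave 6.00 and 1.80. For untreated wild type cells the lowest detected signal was 5.53 and 3.56, so the folds do not compare the genotypes. The log2 differences from the floor were 5.64 and 5.55 (SE 1.00 for both, limma adjusted p = 0.00341 and 0.00370). MiR-299*, the other tested arm of the Dlk1-Dio3 region, gave 25.65 and 24.4 untreated and 49.0 and 67.2 at 12 h in wild type, and 14.6 and 14.4 against 35.0 and 31.5 in the knockout. Both pairs of groups were apart, but its differences of 1.20 in each genotype (SE 0.48) did not pass the test (limma adjusted p = 0.0786 and 0.0759).

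Let-7d* gave 10.6 and 6.64 in untreated wild type cells and 218 and 509 at 12 h. The knockout gave 6.21 and 6.62 untreated and 345 and 321 at 12 h. The software called this arm detected on all 4 untreated arrays although the spots were at or near the floor. The differences were 5.01 in wild type and 5.05 in knockout (SE 0.78 for both, limma adjusted p = 0.00208 and 0.00195). The direction rests on the summary of the spots. The software's own total gene signal for let-7d* in untreated wild type cells was 696 and 884 against summed spot signals of 18.2 and 13.4 before scaling, and 33.5 and 149 at 12 h against 101 and 441. The authors' deposited log2 values are the log2 of that total. With them let-7d* was lower at 12 h, with differences of -2.02 in wild type and -2.07 in the knockout. Which summary is nearer to the amount of RNA was not tested.

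Let-7b* was at the floor and undetected on the 4 untreated arrays and gave 114 and 229 at 12 h in wild type and 242 and 156 in the knockout. By the measure used for miR-485*, let-7b* was 36.5-fold higher in wild type and 59.0-fold higher in the knockout. The log2 differences of let-7b* were 4.01 and 4.27 (SE 0.66 for both, limma adjusted p = 0.00263 and 0.00195). Let-7f* and let-7g* were undetected on the untreated arrays as well. At 12 h let-7f* gave 40.2 and 84.7 in wild type and 71.5 and 42.5 in the knockout. Let-7g* gave 47.4 and 105.8 in wild type and 74.95 and 75.5 in the knockout. For both arms every 12 h array was above every untreated array. The differences were 2.53 and 2.46 for let-7f* and 2.82 and 2.91 for let-7g*, in wild type and knockout in that order. The other 3 asterisk arms of let-7 precursors on the array, let-7a*, let-7c-1* and let-7i*, were detected on no array.

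MiR-15a* was undetected on the untreated arrays and gave 70.7 and 170 at 12 h in wild type and 143 and 122 in the knockout. By the measure used for miR-485*, miR-15a* was 24.7-fold and 105-fold higher. Its differences were 3.45 and 3.72 (SE 0.48 for both, limma adjusted p = 0.00141 and 0.00104). Its neighbour miR-16* gave 23.8 and 88.0 at 12 h in wild type, where the software detected it on the second array only, and 45.6 and 45.4 in the knockout, from the floor in untreated cells. The differences of miR-16* were 2.19 and 2.18. MiR-15b*, the asterisk arm of a related precursor, was detected on no array.

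MiR-483* gave 14.6 and a floor value in untreated wild type cells and 354 and 278 at 12 h. In the knockout it was at the floor on both untreated arrays and gave 379.2 and 154.1 at 12 h. The differences were 4.69 and 4.59 (SE 0.63 for both, limma adjusted p = 0.00129 and 0.00135). MiR-18a* rose from the floor to 47.1 and 123 in wild type and 72.2 and 71.9 in the knockout, by 2.92 and 2.84 on the log2 scale, while miR-17*, which lies next to it, did not pass the test. MiR-872* rose from the floor to 22.7 and 69.7 in wild type, the first of these undetected, and to 39.9 and 44.2 in the knockout. Its differences were 1.99 and 2.07.

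The single lower call at 12 h was miR-378* in wild type. It gave 10.8 and 11.8 in untreated wild type cells, just above the floor of 10.0, and was at the floor and undetected at 12 h. The difference of -0.17 (SE 0.03, limma adjusted p = 0.00554) is small and is limited by the floor, which also takes away the spread. With normexp background correction it turned to 1.38. In untreated knockout cells it gave 9.61 and 9.93, just under the floor, so that no fall could be measured there.

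The rises at 12 h were seen beside a rise of a probe set for a virus that the labels do not mention. The array carries 39 viral miRNAs, and 1 of them, the gammaherpesvirus entry mghv-miR-M1-2, was detected on all 12 arrays. It gave 78.4 and 18.9 in untreated wild type cells, 671 and 386 at 12 h, and 152 and 102 at 24 h. In the knockout it gave 51.3 and 13.2 untreated, 675 and 202 at 12 h, and 47.4 and 86.2 at 24 h. The high arrays for this entry were the same 4 arrays of 12 h on which the 10 asterisk arms were high. The scale factors of those arrays were between 0.713 and 2.15, against 0.318 to 0.582 for the untreated arrays. Without any scaling all 10 arms were still higher at 12 h in both genotypes, and 7 of the 10 in wild type and 8 of the 10 in the knockout were called. With the software's total gene signal 9 of the 10 were higher in each genotype, all but let-7d*, and 5 in wild type and 4 in the knockout were called. The part of the probes, the slide or the labelling in the result was not tested.

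The guide arms did not rise with their asterisk arms. Of the 19 tested guides of tested asterisk arms, none was higher and 9 were lower at 12 h in wild type, and none was higher and 10 were lower in the knockout. Among all 256 tested miRNAs 25.4% were called lower in each genotype. The median difference was -0.46 over the 19 guides in wild type and -0.73 in the knockout. Over all 256 tested miRNAs the medians were -0.09 and 0. Most of these guides were detected on every array. In a fit of only the miRNAs detected on every array, the medians were -0.42 in wild type and -0.44 in the knockout. There 42.1% and 50.5% were called in either direction. The wild type guide median was thus near that of well-detected miRNAs, and the knockout guide median was lower. Let-7d gave 629 and 651 in untreated wild type cells and 533.5 and 489 at 12 h, and 604 and 616 against 474 and 359 in the knockout. MiR-15a gave 738 and 666.7 in untreated wild type cells and 420 and 401 at 12 h, and it fell in both genotypes, by 0.77 and 0.74 on the log2 scale (limma adjusted p = 0.0192 and 0.0231). MiR-16 fell likewise, by 0.85 in each genotype. MiR-18a, whose asterisk arm rose by 2.92 in wild type, gave 107 and 96.1 untreated and 75.02 and 75.95 at 12 h, and its difference in the knockout was -0.01.

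The comparison of each asterisk arm with its guide was then made array by array, as the log2 signal of the asterisk arm minus that of the guide. This arm difference was tested in 38 pairs, 20 of which were chosen asterisk arms. In some pairs the guide is not tied to 1 precursor. RefSeq's entry taken for miR-16 lies on chromosome 3 and that for miR-16* on chromosome 14, and miR-24-1* and miR-24-2* share the guide miR-24. For such pairs the arm difference does not compare the arms of a single precursor alone. At 12 h it was higher in 12 of the 20 pairs and lower in 1 in wild type, and higher in 13 in the knockout. The share called in either direction was 65% of the 20 pairs in both genotypes, beside 57.9% of all 38 pairs in wild type and 60.5% in the knockout, and the 20 pairs are among the 38. The median change over the 20 pairs was 2.05 in wild type and 2.29 in the knockout, beside 1.86 over all pairs in each genotype. As the asterisk arms tested are partly those detected only at 12 h, these shares carry the same condition as the counts above.

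The 8 arms that rose at 12 h and had a tested guide accounted for 8 of the calls in each genotype. Their changes in the arm difference ran from 2.30 for miR-872* to 5.34 for let-7d* in wild type and from 2.72 for miR-872* to 5.61 for let-7d* in the knockout. With total gene signal the value turned for let-7d*, to -1.62 in wild type and -1.32 in the knockout, and for miR-872* in wild type, to -2.14. MiR-15a* changed by 4.22 and 4.45 relative to miR-15a, and let-7b* by 3.71 and 4.52 relative to let-7b. Since the untreated asterisk arms were at the floor on 1 or both arrays, the size of these changes depends on the floor as well as on the summary of the spots.

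**Figure D2:**
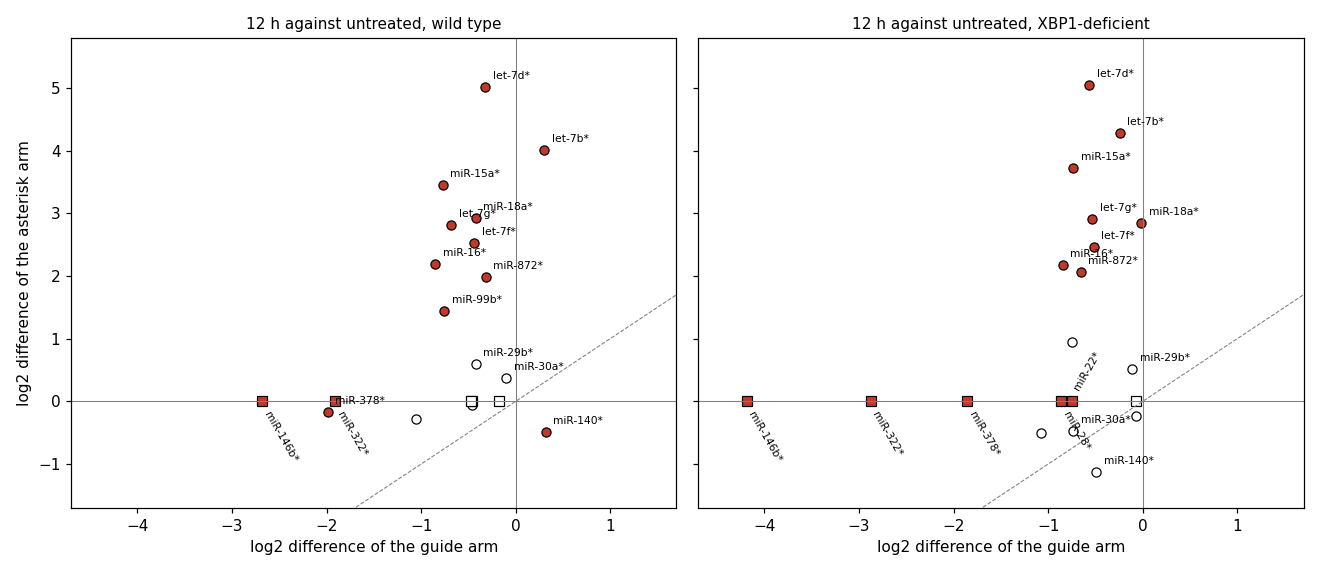
Each point is 1 of 20 arm pairs, with the log2 difference of the guide at 12 h against untreated on the horizontal axis and that of the asterisk arm on the vertical axis, in wild type (left) and XBP1-deficient cells (right). Red fill marks pairs whose arm difference was called, squares mark asterisk arms at the floor on all 4 arrays compared, and the dashed line marks equal differences. The let-7 and miR-15a, miR-16, miR-18a and miR-872 arms lie high above the line, with guide differences between -0.85 and 0.30.

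The remaining calls came from the guides. MiR-146b*, miR-322* and miR-378* had higher arm differences in both genotypes, by 2.68, 1.91 and 1.82 in wild type and by 4.19, 2.88 and 1.86 in the knockout. MiR-146b* and miR-322* were at the floor on every array, and miR-378* was above it only in untreated wild type cells. The guide miR-146b, which dampens inflammatory signalling, fell from 153.1 and 152.5 to 25.9 and 22.0 in wild type and from 312 and 323.3 to 22.8 and 13.3 in the knockout. MiR-322, a relative of miR-15 and miR-16, fell from 289 and 273 to 64.8 and 85.8 in wild type and from 687 and 711 to 96.1 and 94.2 in the knockout. MiR-378, from an intron of Ppargc1b, fell from 115 and 124 to 29.0 and 31.2 in wild type and from 103 and 121 to 35.4 and 26.7 in the knockout. With total gene signal the arm difference turned for miR-146b* (-0.22 in wild type and -0.86 in the knockout), for miR-378* (-2.38 and -1.31) and, in the knockout, for miR-322* (-2.04). By the software's call miR-146b*, miR-322*, miR-378*, miR-22* and miR-28* were each detected on both untreated knockout arrays and on neither knockout array of 12 h. The floor hides such changes. For an arm at the floor on every array compared, the arm difference is the guide's change with the sign reversed. MiR-22* and miR-28*, also at the floor on every array, were called in the knockout (0.75 and 0.87, limma adjusted p = 0.0143 and 0.0177), where miR-22 fell by 0.75 and miR-28 by 0.87. Both turned with total gene signal, to -5.54 and -1.65. Whether the genotypes differ in these pairs was not tested.

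MiR-140* was the exception, with both arms far above the floor. Its guide miR-140 gave 507 and 511 in untreated wild type cells and 781.5 and 513.5 at 12 h, while the asterisk arm went from 216 and 224 to 156 and 157. The arm difference fell by 0.81 (SE 0.27, limma adjusted p = 0.0333). In the knockout miR-140 gave 492 and 504 untreated and 481 and 262 at 12 h, and the arm difference was -0.63 (SE 0.27, limma adjusted p = 0.0755), which did not pass the test. The wild type call was lost in 10 of 26 alternative settings, in which the value ran from -1.12 to -0.16. It was lost without either untreated array of either genotype, and without the first wild type array of 12 h, when the value was -0.50. MiR-99b* had a higher arm difference in wild type (2.19, SE 0.78, limma adjusted p = 0.0402), and here 1 array decided the value: miR-99b* gave 73.5 on the second 12 h array and was at the floor on the first. Its difference by itself, 1.44 (SE 0.78), did not pass the test.

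For miR-30a*, miR-30e* and miR-29b* the arm difference was not called at 12 h in either genotype, although the asterisk arm was above the floor on most arrays. MiR-30a* gave 11.01 and 13.1 in untreated wild type cells and 15.39 and 15.7 at 12 h, both undetected, with 26.4 and 27.2 against 24.998 and 14.8 in the knockout. The changes in its arm difference were 0.48 and 0.26 (SE 0.40 for both). Those of miR-30e* were 0.77 and 0.57, and those of miR-29b* were 1.02 and 0.63. For the 2 miR-30 arms the guide fell more than the asterisk arm in the knockout. The difference there was -0.73 for miR-30a (limma adjusted p = 0.00128) and -1.07 for miR-30e (limma adjusted p = 0.0293), beside asterisk arm differences of -0.48 and -0.50 that did not pass the test.

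**Figure D3:**
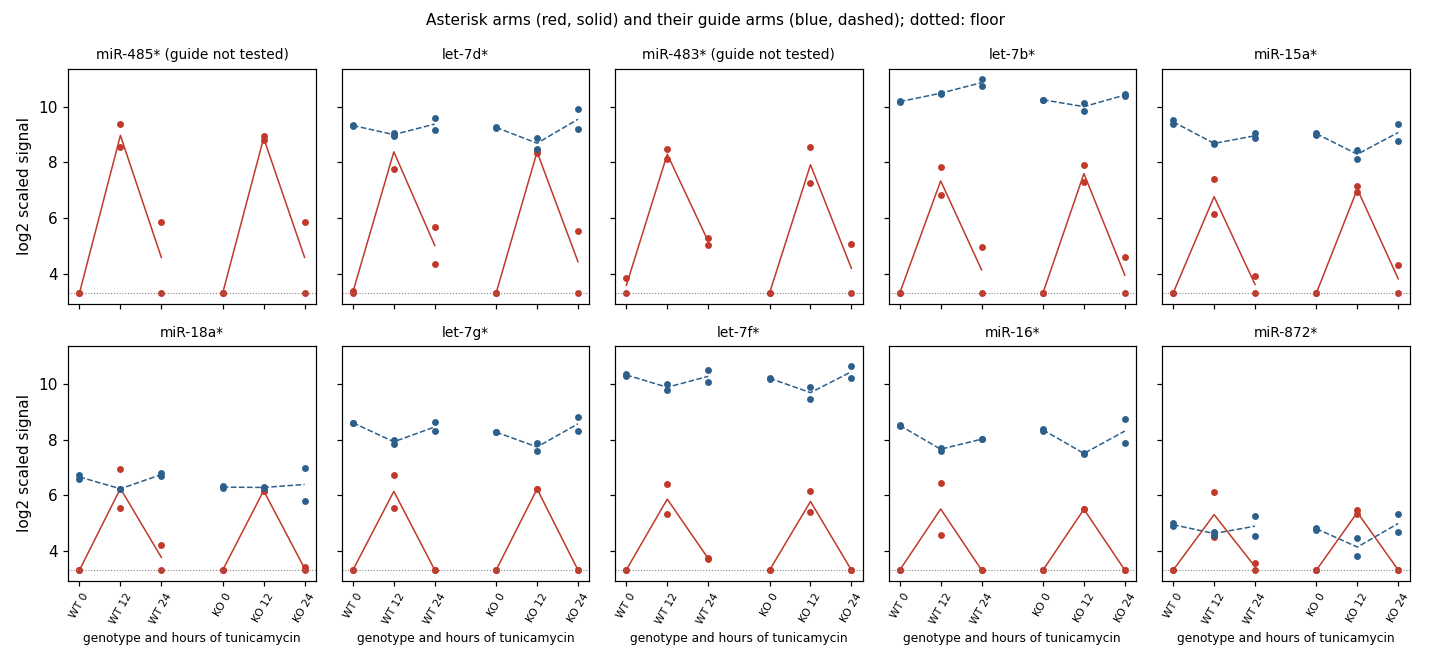
Each panel shows 1 of the 10 arms that rose at 12 h (red, solid) and, where tested, its guide (blue, dashed), as log2 scaled signal against genotype and hours of tunicamycin. Points are single arrays, lines join the means of 2 arrays, and the dotted line is the floor. In all 10 panels the red line peaks at 12 h in both genotypes, while no blue line rises by more than a small part of that.

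The comparison of 24 h with 12 h showed the loss of these signals. All 10 arms were lower at 24 h in wild type and all 10 in the knockout, and limma called no asterisk arm higher in either genotype, nor did any pass upward at an unadjusted p under 0.05. Over all 256 tested miRNAs 18.8% were lower and 3.12% higher in wild type, and 21.9% and 17.6% in the knockout. Since these arms, all but let-7d*, entered the test only through their 12 h values, their share is not read against these values. Without the detection filter 7 of the 105 (6.67%) were lower in wild type, beside 5.4% of all 611, and 10 of the 105 (9.52%) in the knockout, beside 7.36%. MiR-485* gave 58.5 on the second wild type array at 24 h and 58.7 on the second knockout array and was at the floor on the first array of each. Its differences were -4.37 and -4.27 (SE 1.00 for both, limma adjusted p = 0.0210 and 0.0170). Let-7d* gave 20.8 and 51.2 in wild type and a floor value and 47.2 in the knockout at 24 h, with differences of -3.35 and -3.93. With the authors' deposited log2 values these turned to 1.75 and 2.50. Those of let-7b* were -3.19 and -3.64, those of miR-15a* were -3.14 and -3.21, and those of miR-483* were -3.11 and -3.71. The replicate 1 arrays of 12 h and 24 h shared 1 scan and the replicate 2 arrays another, and within each scan all 10 arms were lower at 24 h in both genotypes. For let-7b* the within-scan difference was -3.51 in the first wild type pair and -2.86 in the second, and -4.59 and -2.68 for the knockout pairs.

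These calls rest on few arrays. Without the first wild type array of 24 h, 3 of the 10 arms were still called lower in wild type, without the second of 12 h 6 were, and without the second knockout array of 12 h 6 were in the knockout. All 10 had lower values at 24 h in each of these fits. With normexp background correction all 10 were again lower, but none was called in wild type and 3 were in the knockout. Over the same interval in the knockout 9 of 19 guides were higher at 24 h than at 12 h, among them let-7d by 0.86, miR-15a by 0.78 and miR-16 by 0.80, and in wild type 2 were, miR-24 by 0.39 and miR-30a by 0.53, neither of them a guide of the 10 arms. Limma called no guide lower in either genotype.

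At 24 h against untreated cells the count of asterisk arms called was 1 in wild type and 0 in the knockout, and it depended on the processing. Normexp background correction called 25 in each genotype, and no scaling between arrays called 8 and 14. In wild type miR-378* was lower by the same -0.17 as at 12 h and no arm was higher, beside 2.73% called higher and 14.8% called lower among all 256 tested miRNAs. In the knockout limma called none (1 at an unadjusted p under 0.05), beside 14.1% of all called in either direction. Of the 10 arms that rose at 12 h, the largest differences left at 24 h were 1.66 for let-7d* and 1.58 for miR-483* in wild type and 1.27 for miR-485* in each genotype, none past the threshold. Where both arrays of a group were undetected, as for let-7g* at 24 h, no fold is given. The arm differences that were called at 24 h were those of miR-146b*, miR-322* and miR-378*, by 3.34, 2.15 and 2.69 in wild type and 3.31, 2.05 and 2.06 in the knockout. These 3 of 20 pairs were 15% in each genotype, beside 15.8% of all 38 pairs in wild type and 13.2% in the knockout. As at 12 h these values follow the guides, which stayed low at 24 h, such as miR-322 with 90.9 and 43.8 in wild type and 151 and 189 in the knockout.

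The question of the design was whether responses depend on XBP1. For the asterisk arms the difference between the genotypes' responses was called for none by limma, at 12 h or at 24 h (1 arm at an unadjusted p under 0.05 in each case, miR-378*, from its floor values). Among all 256 tested miRNAs 5.86% were called at 12 h and 4.69% at 24 h. For the 10 arms the wild type difference minus the knockout difference at 12 h ran from -0.27 for miR-15a* (SE 0.68) to 0.10 for miR-483* (SE 0.90). The SE was lowest for let-7g*, at 0.45, but this arm was at the floor with no spread on 8 arrays, so that this SE is too small. For miR-485* the SE was 1.41, so that a difference of that size between the genotypes could not be seen for it. Without the first wild type array of 12 h, 4 asterisk arms were called at 12 h, and without the second 3 were, in the opposite direction.

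Between untreated knockout and wild type cells, differences in many asterisk arms could not be measured because of the floor. MiR-146b*, miR-24-2* and miR-322*, for example, were at the floor on every untreated array. Yet the software detected them on both untreated knockout arrays and on neither untreated wild type array. No tested arm showed the reverse. These arms were tested only through their detection in untreated knockout cells. Before scaling, the summed mouse signal was 184000 and 186000 on the untreated knockout arrays and 94800 and 108000 on the untreated wild type ones. The detections are therefore not read as a difference between the genotypes. Only miR-378* was called (-0.17, limma adjusted p = 0.0150), at the floor, beside 12.5% of all 256 miRNAs. The value turned to 0.11 with a percentile over all mouse miRNAs and to 0.54 without scaling, and the call was lost without either untreated knockout array. Without scaling 8 asterisk arms were called, and with the scan as a fixed block 2 were. MiR-30a* gave 11.01 and 13.1 in wild type and 26.4 and 27.2 in the knockout, so that the groups were far apart, but with a difference of 1.16 (SE 0.34, limma adjusted p = 0.0803) it missed the threshold. Its guide miR-30a was called, with 180 and 176 in wild type and 365 and 367 in the knockout (difference 1.04, SE 0.10, limma adjusted p = 0.000478). The arm difference of miR-30a* was 0.12 (SE 0.40), which did not pass the test. Limma called no arm difference between untreated knockout and wild type cells among the 20 pairs (2 at an unadjusted p under 0.05), beside 0% of all 38 pairs.

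Sequence features of the arms were set beside the 12 h differences. All 10 arms that rose come from the 3′ side of the hairpin, while of the other 13 tested arms with a sequence 9 come from the 3′ side and 4 from the 5′ side. Length was 21 to 22 bases in the 10 and 21 to 23 in the others. The number of pyrimidines (C or U) among the last 10 bases ran from 5 to 10 in the 10 arms, with a median of 8.5, and from 3 to 6 in the other 13, with a median of 5. As the printed sequences show, miR-485* ends in 10 pyrimidines, miR-483* has 9, and miR-140* has 3. This feature was chosen after the values were seen, so it is given as a description with no test. RefSeq entries on chromosome 18 were left out, here and in the matching of names. Of 1672 other mature mouse miRNAs of at least 18 bases in RefSeq, 11.5% have 8 or more pyrimidines among the last 10 bases. Of the 10 arms 6 have as many, and none of the other 13 has. Let-7a*, let-7c-1* and let-7i* have 8 or more as well and were detected on no array, so the feature also occurs in arms that were not detected. Of these, let-7i* gave 11.9 and 38.2 at 12 h in wild type and 28.4 and 21.2 in the knockout, above the floor though undetected, and it was at the floor on the other 8 arrays. Let-7a* was above the floor on 1 array and let-7c-1* on none. MiR-15b*, with 7 such pyrimidines, was detected on no array either. These 4 were the only untested arms whose sequences were looked at, and arms that stayed dim on all arrays are not among those compared.

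**Figure D4:**
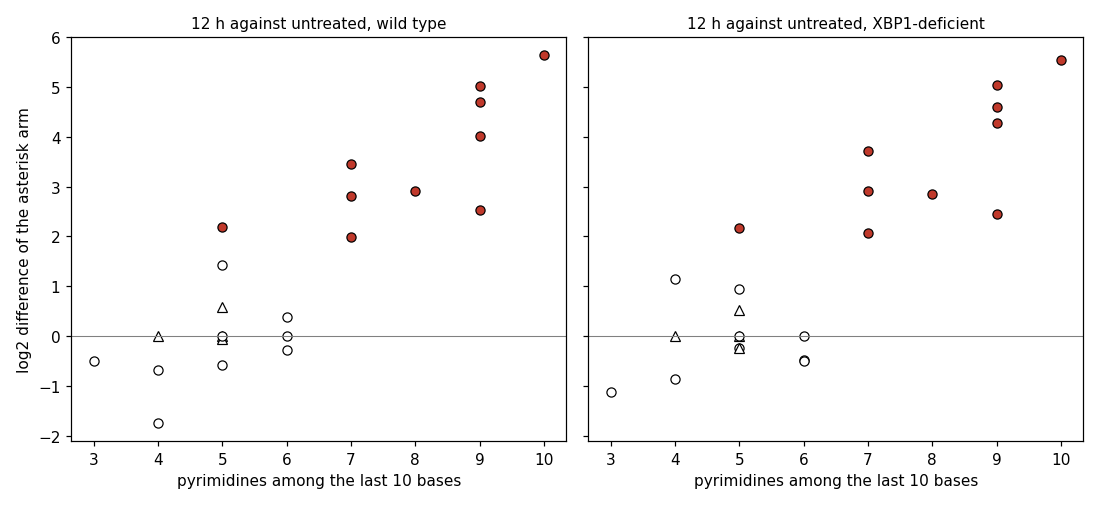
The number of pyrimidines among the last 10 bases (horizontal axis) is plotted against the log2 difference at 12 h against untreated (vertical axis) for the 23 tested asterisk arms with a sequence, in wild type (left) and XBP1-deficient cells (right). Circles are arms from the 3′ side and triangles from the 5′ side, and red fill marks called arms. Every plotted arm with 7 or more pyrimidines was called higher, and of those with 6 or fewer only miR-16*, with 5, was. All those with 7 or more except let-7d* were tested only because they were detected at 12 h.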

How the data were processed

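RNA of 12 samples was hybridised to Agilent miRNA arrays with 1 colour. Per the file headers, scanning software (Feature Extraction 10.7.1.1) wrote the deposited intensity of every spot, background-subtracted and not normalized between arrays. The authors' deposited log2 values match log2 of that software's gene totals to within 1.15e-06. The array files name no genome build, and sequences and coordinates are those of RefSeq (GRCm38.p6).

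Outlier and control spots were left out. Intensities were averaged within probes and summed within miRNAs, and each array was scaled to an equal 75th percentile over 95 miRNAs detected on all arrays. A floor at the 5th percentile of detected signals (10.0, log2 3.33) was set before log2. One limma 3.58.1 model (R 4.3.3 with version 1.17.8 of data.table) with 6 group means and an intensity trend (6 residual and 0.981 prior degrees of freedom) gave 9 comparisons adjusted by Benjamini-Hochberg over 256 miRNAs. A second model of array-wise arm differences gave 5 comparisons over 38 pairs. These fits were tested on simulated data. Where a group was undetected, the fold sets the bright group's mean log2 against that of the dim group. Each dim array was put at the higher of the miRNA's own signal and the array's lowest detected signal. The lowest detected signal is not an upper limit for an undetected miRNA. Figures were drawn with matplotlib 3.10.9 in Python 3.11.15.

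The arms named with a value per array were those detected on all arrays, the 5 largest rises and falls among called arms in each comparison, and arms of called pairs; miR-299*, miR-30a*, miR-30e*, miR-463* and the arms named for their sequence were added after their values were seen. The members and lists were chosen with earlier results of these data known. Files have no column of mean spot signals, so the planned normexp alternative used median signals. There are only 2 arrays per group, which limits precision, and values at the floor have no spread, so SEs near it are too small. Same-numbered arrays of both genotypes at the same time shared a scan, and their deviations correlated at 0.88 untreated, 0.587 at 12 h and 0.44 at 24 h over 110 miRNAs. Between times within a genotype the correlations ran from -0.521 to 0.24, so the numbers did not pair samples across treatments.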

Additional observations from a re-analysis of the deposited data

Results flagged for a closer look

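For miR-135a* every wild type array moved down and every knockout array moved up at 12 h. It gave 34.3 and 32.6 in untreated wild type cells and floor values at 12 h, and 34.0 and 32.0 against 83.6 and 64.6 in the knockout. The differences were -1.74 in wild type and 1.16 in the knockout, and the difference between them was -2.89 (SE 1.6, limma adjusted p = 0.637), which did not pass the test. At 24 h its 2 wild type arrays were apart, with a floor value and 119, and those of the knockout gave 45.7 and a floor value.

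MiR-30a* also moved in opposite directions at 12 h, by 0.37 in wild type and -0.48 in the knockout. The difference between them was 0.85 (SE 0.48, limma adjusted p = 0.651), which did not pass the test.

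Of the viral entries, which no comparison used, mghv-miR-M1-2 was above its untreated level on both arrays of 3 groups, with means of 528 in wild type at 12 h, 438 in the knockout at 12 h and 126.8 in wild type at 24 h. Mghv-miR-M1-6 was detected on both arrays of the knockout at 12 h, with a mean of 55.3. In wild type at 12 h mghv-miR-M1-6 gave 40.8, undetected, and 79.6, against 4.99 and 6.84 untreated.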

How the results depend on the processing

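Of the values for single arms and arm pairs under the alternatives, 1619 stayed on the same side of the threshold in the same direction, 136 lost the call and 26 changed sign. The 10 rises at 12 h were all called in both genotypes with normexp, quantile normalization, a percentile over all mouse miRNAs, outlier spots kept, a floor at the 10th percentile, no detection filter, no intensity trend, scan as a random block, and the replicate block. The replicate block gave 11 and 10 calls at 12 h in wild type and knockout, and changed no count of calls by over 1.5 times. The cause of the changes below was not tested. Counts are in the order wild type 12 h, knockout 12 h, wild type 24 h and knockout 24 h against untreated cells, where the main counts were 11, 10, 1 and 0.

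Normexp gave 25, 25, 25 and 25 calls, no scaling between arrays (added after the data were seen) gave 21 in the knockout at 12 h and 8 and 14 at 24 h, and leaving out floor values gave 4, 4, 3 and 4. The deposited values, with 3 or fewer of the 10 risers measurable on both sides, gave 4 and 5 at 12 h and 2 in the knockout at 24 h. Total gene signal gave 2 and 7 at 24 h, and miRNAs detected on all 12 arrays gave 0, 1, 0 and 1. For wild type at 24 h, a percentile over all mouse miRNAs and outlier spots kept each gave 0. For 24 h against 12 h (10 and 10), normexp gave 0 and 3, total gene signal 5 and 5, deposited values 0 and 5, floor values left out 5 and 6, detection on all arrays 0 and 0, and no scaling 5 in wild type. The differences between responses (0 and 0) became 5 and 3 with total gene signal and 5 and 3 without scaling, and 1 at 24 h with deposited values. Untreated knockout against wild type (1) became 0 with normexp, quantile, the percentile over all miRNAs, outlier spots kept, the 10th percentile floor and detection on all arrays, 3 with total gene signal, 2 with floor values left out, 8 without scaling and 2 with scan as a fixed block, also added after the data were seen.

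Arm pairs called (13, 13, 3, 3 and, in untreated cells, 0) became 1, 1, 0 and 1 with deposited values, 3, 0, 0 and 0 with floor values left out, 32, 32, 11, 8 and 1 with all mouse miRNAs, and 1, 0, 1 and 0 with detection on all arrays. Normexp gave 19, 19 and 7 in the last 3 comparisons, no scaling 17, 14 and 1, total gene signal 7 in the knockout at 12 h, 1 in wild type at 24 h and 2 in untreated cells, and the 10th percentile floor 1 in untreated cells.

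Let-7d* changed sign at 12 h with total gene signal and deposited values (-2.02 in wild type and -2.07 in the knockout), and at 24 h against 12 h with deposited values (1.75 and 2.50). MiR-378* changed sign with normexp (1.38 at 12 h and 1.30 at 24 h, wild type), and in untreated cells with the percentile over all miRNAs (0.11) and without scaling (0.54). With total gene signal, arm differences changed sign at 12 h for let-7d* (-1.62 and -1.32, likewise with deposited values), miR-146b* (-0.22 and -0.86), miR-378* (-2.38 and -1.31), miR-872* (-2.14 in wild type), and in the knockout miR-22* (-5.54), miR-28* (-1.65) and miR-322* (-2.04). At 24 h they did for miR-378* (-0.083 and -1.001) and, in the knockout, miR-146b* (-1.46) and miR-322* (-2.87).

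Leaving out 1 array at a time gave 10 to 13, 9 to 12, 0 to 3 and 0 to 2 calls against untreated cells, 4 to 11 and 6 to 13 for 24 h against 12 h, 0 to 4 and 0 to 3 between responses, and 0 to 2 in untreated cells. Arm pairs gave 11 to 12, 11 to 14, 3 to 3, 3 to 3 and 0 to 1. A group left with 1 array was assumed to vary like the others.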
